A study of Mus musculus with 6 samples.

Results

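Mouse small-intestinal organoids kept for 4 days with an antagonist of the retinoid X receptor (RXR) were compared with vehicle-treated organoids collected on day 1 of the same kind of culture. The comparison takes every deposited cell barcode: 3570 cells in the single antagonist library, against 5576 and 5304 cells in the 2 day-1 vehicle libraries, out of 29565 cells in the 6 libraries of the series. The 2 day-1 libraries were kept apart, and a difference was accepted where it held against each of them. The comparison asks which features of the antagonist-treated epithelium are not already present in organoids at an early step of regrowth.

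Organoids were derived from wild-type C57BL/6 mice 8 weeks old and were profiled by droplet-based single-cell RNA sequencing. The antagonist group received 5 micromolar of an RXR antagonist (labelled RXRi) at day 0 and again at day 3 and was collected on day 4 (1 library). The day-1 group received DMSO, the solvent, and was collected on day 1 (2 libraries). A further DMSO group collected on day 4 (1 library) shares its day and medium with the antagonist group, and its level is given for context beside most results. The groups described here started in the growth medium ENR with 20% Wnt3a-conditioned medium. This medium also held 10 micromolar of the ROCK inhibitor Y-27632 and 3 micromolar of the GSK3B inhibitor CHIR99021. Those collected on day 4 went to ENR alone at day 3. Day-1 cells were therefore still under the Wnt-activating medium, and in the comparison of the antagonist library with day-1 vehicle the effects of the drug, of the day and of the medium cannot be told apart. Cells were sorted to remove debris and dead cells before capture.

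RXR is a nuclear receptor that binds DNA mostly as the shared partner of other receptors, among them the retinoic acid receptors, the PPARs, the liver X receptors, the bile acid receptor FXR, the vitamin D receptor and the xenobiotic receptors PXR and CAR. In the intestine these receptors are known for the control of enterocyte maturation and of lipid, bile acid, vitamin A and drug handling. When a single intestinal cell grows into an organoid it passes early through a fetal-like regenerative state, marked by Ly6a (Sca-1), Clu and Anxa1 and linked to the transcriptional co-activator YAP, before crypts with stem and Paneth cells and villus-type enterocytes appear.

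The antagonist library held 49364894 unique molecular identifiers (UMIs, each standing for 1 captured RNA molecule), with a median of 13431 UMIs a cell. The day-1 libraries held 66406098 and 62823092 UMIs, with medians of 11573 and 11920. The median share of mitochondrial UMIs was 1.84% in the antagonist library, against 2.93% and 2.82% in day-1 vehicle and 3.58% in day-4 vehicle, and whether this difference has a part in any result below was not tested. The antagonist library shared 4 and 3 barcodes with the day-1 libraries. The 2 day-1 libraries differed from each other by more than sampling noise, with 200 of 12914 well-covered genes (1.55%) at least 2-fold apart. Day-1 library 2 stood above day-1 library 1 for secretory and absorptive genes. The summed level of enteroendocrine genes was 4332 CPM (UMI counts scaled by the total of their library) in day-1 library 2 and 1258 CPM in day-1 library 1, and the summed level of enterocyte genes was 13504 CPM in library 2 and 7799 CPM in library 1. Nothing in the labels says that these libraries came from separate cultures, so the p-values below measure only the spread between them, and the lone antagonist library is assumed to vary as they do. Fewer cells of a type and less RNA per cell cannot be told apart in sums over a library.

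All 3 libraries were epithelial. Epcam, the pan-epithelial adhesion molecule, had 2388 CPM with the antagonist, against 2980 and 3217 CPM in day-1 vehicle, and Cdx2, the master regulator of intestinal identity, had 221 CPM against 189 and 196 CPM. Markers of other tissues were at or near 0 in the antagonist library. Fibroblast and smooth muscle markers (7 genes) summed to 0.081 CPM, endothelial markers (5 genes) to 1.05 CPM, neuron and glia markers (5 genes) to 0.425 CPM, and red blood cell markers (5 genes) to 0 UMIs. Immune markers (7 genes) summed to 11.6 CPM, against 1.39 and 1.80 CPM in day-1 vehicle and 1.44 CPM in day-4 vehicle. Of that sum 11.5 CPM was Cd68, a lysosomal protein that epithelial cells can also make.

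Of 12404 genes tested, 1042 (8.4%) were called higher and 1928 (15.5%) lower in the antagonist library than in day-1 vehicle. A call needed an adjusted p under 0.05 in edgeR's quasi-likelihood test and a ratio of at least 2-fold, in the same direction, against each day-1 library. These shares are the background for the counts of gene groups below. By size alone, with no test, the counts were 1043 (8.41%) and 1931 (15.6%). The median gene lay 0.15 log2 units lower with the antagonist on the CPM scale, so a log2 ratio of a gene list is to be read against -0.15. When the ratios were scaled with DESeq2's size factors, which put the median gene at 0.00, 1311 genes were called higher and 1587 lower.

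**Figure D1:**
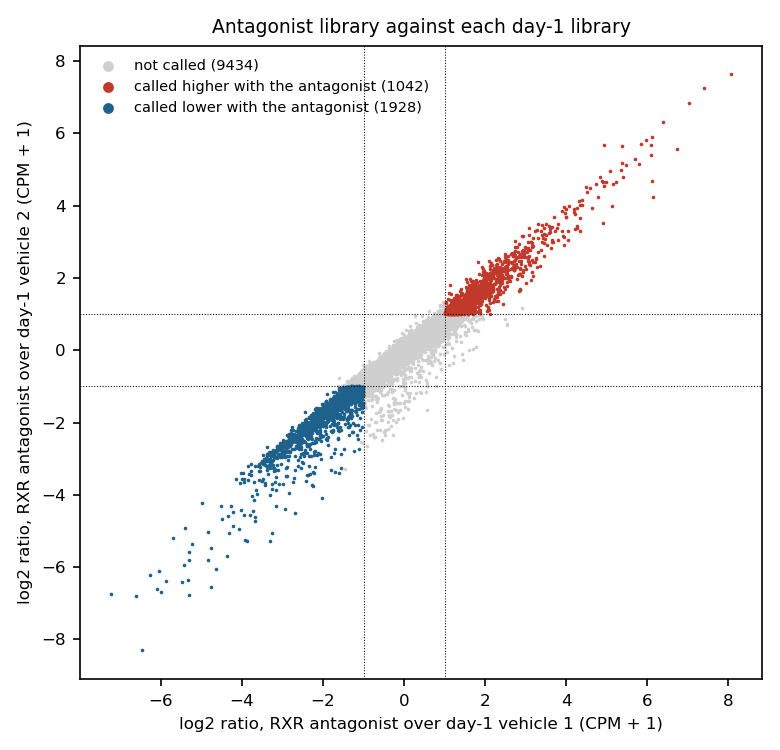
Each point is 1 of the 12404 genes tested. The horizontal axis gives its log2 ratio of the antagonist library over day-1 vehicle library 1 and the vertical axis that over day-1 vehicle library 2 (CPM + 1), with dotted lines at 2-fold. The 1042 genes called higher (red) and the 1928 called lower (blue) lie along the diagonal, and a group of uncalled genes below it is higher in day-1 library 2 than in day-1 library 1.

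The 12 genes that stood highest with the antagonist included the Ly6 genes Ly6d, Ly6g and Ly6m and the keratins Krt79 and Krt4. Ly6d, a membrane protein of the Ly6 family on chromosome 15 (GRCm38, 74762056 to 74763620) known from stratified epithelium, had 1519 CPM with the antagonist (95% counting interval 1508 to 1530), against 4.64 and 6.67 CPM in day-1 vehicle and 0.342 CPM in day-4 vehicle. Its ratio was 327-fold and 228-fold against the 2 day-1 libraries (edgeR log2 fold change 8.23, SE 0.27, adjusted p = 0.00105). All 3 vehicle libraries lay below 10 CPM. Ly6g, of the same family, had 305 CPM with the antagonist, against 3.83 and 4.39 CPM in day-1 vehicle and 0.019 CPM in day-4 vehicle. Ly6m, also of this family, had 68.1 CPM with the antagonist, against 0.331 and 0.764 CPM in day-1 vehicle and 0.057 CPM in day-4 vehicle.

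Sprr2f, Trim29, Krt79, Krt4, Wfdc2 and Mal, also among the highest, each had under 1 CPM in the 3 vehicle libraries. Sprr2f, a small proline-rich protein of the cornified envelope, had 143 CPM with the antagonist, against 0.105 and 0.271 CPM in day-1 vehicle and 0.038 CPM in day-4 vehicle. Trim29, a protein expressed in stratified epithelium, had 77.5 CPM with the antagonist, against 0.12 and 0.318 CPM in day-1 vehicle and 0 UMIs in day-4 vehicle. Krt79 and Krt4 are keratins of skin ducts and of the oesophagus. Krt79 had 59.7 CPM with the antagonist against 0.0452 and 0.159 CPM in day-1 vehicle and 0.019 CPM in day-4 vehicle. Krt4 had 42.4 CPM with the antagonist, against 0.0452 and 0.191 CPM in day-1 vehicle and 0.038 CPM in day-4 vehicle. Wfdc2, a secreted protease inhibitor of the airway and genital tract, had 132 CPM with the antagonist, against 0.572 and 0.669 CPM in day-1 vehicle and 0.152 CPM in day-4 vehicle. Mal, an apical sorting protein, had 101 CPM with the antagonist, against 0.482 and 0.987 CPM in day-1 vehicle and 0.228 CPM in day-4 vehicle. Counts of Sprr2 and Ly6 genes, which have near-identical copies in the mouse genome, may be split between copies.

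The other 3 of the 12 highest genes were also present in day-4 vehicle. Nupr1, a stress-induced chromatin protein, had 1172 CPM with the antagonist, against 9.92 and 24.0 CPM in day-1 vehicle and 59.6 CPM in day-4 vehicle. AA467197, a small mitochondrial protein gene, had 236 CPM with the antagonist, against 2.48 and 4.60 CPM in day-1 vehicle and 135 CPM in day-4 vehicle. Isx, the intestinal homeobox repressor of vitamin A uptake that retinoic acid induces, had 84.1 CPM with the antagonist, against 1.05 and 0.684 CPM in day-1 vehicle and 172 CPM in day-4 vehicle. Isx was thus far above day 1 yet below the day-4 vehicle, whereas Nupr1 was far above both. Adjusted p for the 12 highest genes lay between 0.000946 and 0.00160 in edgeR's test.

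The promoters of the highest genes were searched for short motifs of AP-1, of nuclear receptors and of TEAD factors, the DNA-binding partners of YAP, whose genes or targets are described below. RefSeq (GRCm38.p6) held the promoter of 8 of the 12 genes, and the 250 bases before the start of transcription were searched on both strands for the AP-1 motif TGANTCA, the nuclear receptor half-site AGGTCA and the TEAD motif GGAATG. The AP-1 motif was found for 2 of the 8 genes, against 6.75% of 32851 mouse promoters of the same length. The half-site was found for 3 of the 8 (14% of all promoters) and the TEAD motif for 2 of the 8 (12.6%). A gene was counted if any of its promoter entries matched, whereas the shares over all promoters are per entry, so these are unlike units. The starts are those of the RefSeq entries, which for AA467197, Nupr1, Wfdc2 and Ly6g lie inside the gene as the GENCODE annotation draws it, so the AA467197 window belongs to a transcript that starts within the gene. Shown are the promoters with an AP-1 match and that of the retinoid-responsive Isx, 5′ to 3′ on the strand of the gene, with motif matches on either strand in capitals.
Sprr2f, chr3:92364937-92365186, plus strand: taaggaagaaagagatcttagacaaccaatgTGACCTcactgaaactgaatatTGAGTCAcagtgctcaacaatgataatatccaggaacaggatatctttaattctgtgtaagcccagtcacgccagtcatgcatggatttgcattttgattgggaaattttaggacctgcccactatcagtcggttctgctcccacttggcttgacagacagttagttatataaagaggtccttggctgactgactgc
AA467197, chr2:122637637-122637886, plus strand: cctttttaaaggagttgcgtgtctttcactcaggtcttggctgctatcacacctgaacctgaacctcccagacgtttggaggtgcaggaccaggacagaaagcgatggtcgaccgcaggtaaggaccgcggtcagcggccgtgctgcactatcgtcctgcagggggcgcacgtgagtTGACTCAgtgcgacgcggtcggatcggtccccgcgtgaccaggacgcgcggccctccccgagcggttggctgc
Isx, chr8:74872924-74873173, plus strand: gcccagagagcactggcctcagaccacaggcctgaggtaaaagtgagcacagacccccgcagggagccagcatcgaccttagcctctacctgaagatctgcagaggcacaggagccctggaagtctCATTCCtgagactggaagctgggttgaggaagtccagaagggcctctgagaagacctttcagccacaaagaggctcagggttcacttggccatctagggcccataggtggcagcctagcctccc
The AP-1 match lay 197 bases before the start in Sprr2f, which also held a half-site 219 bases before it, and 73 bases before the start in AA467197. The Isx promoter held a TEAD match 124 bases before the start and no half-site. A match describes the letters of this window and is not evidence of binding.

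The 12 lowest genes included Cps1, Apoa1, Apob and Otc, 4 members of the enterocyte list that day-1 cells already expressed. Apoa1, the main apolipoprotein of HDL, had 1 UMI in the whole antagonist library, against 5914 and 20122 UMIs in the day-1 libraries. That is 0.0203 CPM with the antagonist, against 89.1 and 320 CPM in day-1 vehicle and 2455 CPM in day-4 vehicle. Its ratio was 0.000227 against day-1 library 1 (95% counting interval 5.76e-06 to 0.00127) and 6.32e-05 against day-1 library 2 (1.60e-06 to 0.000352). Cps1, the first enzyme of the urea cycle, had 0.162 CPM with the antagonist, against 173 and 124 CPM in day-1 vehicle and 367 CPM in day-4 vehicle. Otc, the next enzyme of that cycle, had 0.101 CPM with the antagonist, against 72.3 and 75.1 CPM in day-1 vehicle and 288 CPM in day-4 vehicle. Agmat, a mitochondrial amidinohydrolase, had 0.081 CPM with the antagonist, against 83.0 and 80.2 CPM in day-1 vehicle and 75.5 CPM in day-4 vehicle. Sis, the sucrase-isomaltase of the brush border, had 3.99 CPM with the antagonist, against 222 and 425 CPM in day-1 vehicle and 1947 CPM in day-4 vehicle. In each of these genes the antagonist library lay far below both day-1 libraries, which in turn lay at or below day-4 vehicle for all but Agmat.

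Acta1 and Gip, also among the lowest 12, had another profile. Acta1, the skeletal muscle actin, had 11 CPM with the antagonist, against 705 and 1009 CPM in day-1 vehicle and 92.8 CPM in day-4 vehicle, so its day-1 level was the high one. Gip, the hormone of K cells, had 0.385 CPM with the antagonist, against 54.8 and 113 CPM in day-1 vehicle and 22.2 CPM in day-4 vehicle. Gimd1, Apob, Sult1b1, Ms4a10 and Smlr1 completed the group, at 0.0203 to 2.59 CPM with the antagonist. Adjusted p for the 12 lowest genes lay between 0.000946 and 0.00419 in edgeR's test.

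**Figure D2:**
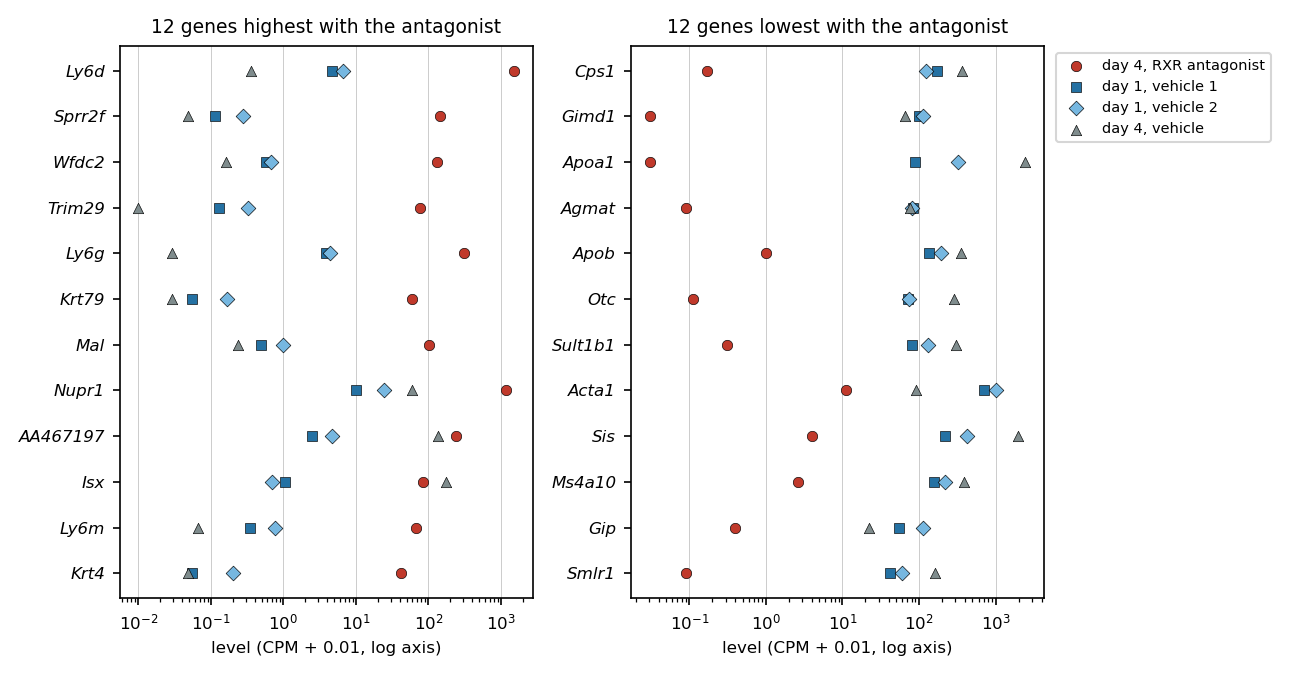
Level of the 12 genes highest and the 12 genes lowest with the antagonist, in CPM + 0.01 on a log axis, with 1 point for each library. The antagonist library (red circles) stands apart from both day-1 libraries (blue) in all 24 genes, and day-4 vehicle (grey triangles) reaches 135 CPM for AA467197 and 172 CPM for Isx, the highest genes in which it comes close to the antagonist library.

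Markers of the regenerative and fetal-like epithelium, which day-1 organoids already expressed, were higher still with the antagonist. Of 21 tested members 17 were called higher and 1 lower (median log2 ratio 1.72, against -0.15 over all genes tested). Ly6a, the Sca-1 antigen of the fetal-like state, had 1099 CPM with the antagonist, against 130 and 138 CPM in day-1 vehicle and 2.47 CPM in day-4 vehicle (edgeR log2 fold change 3.20, SE 0.14, adjusted p = 0.00105). Anxa1, an annexin of regenerating epithelium, had 269 CPM with the antagonist, against 44.0 and 69.3 CPM in day-1 vehicle and 0.323 CPM in day-4 vehicle. Msln, the cell surface protein mesothelin, had 366 CPM with the antagonist, against 70.2 and 123 CPM in day-1 vehicle and 0.038 CPM in day-4 vehicle. These genes had the same order in each case: antagonist above day 1, and day 1 above day-4 vehicle.

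Other members differed in size. Clu, the revival stem cell marker clusterin, had 89.6 CPM with the antagonist, against 29.3 and 44.3 CPM in day-1 vehicle, only just past 2-fold against day-1 library 2 (edgeR adjusted p = 0.00936), and not past it with a pseudocount of 5 CPM. Vsig1, a gastric-type adhesion molecule, had 25.2 CPM with the antagonist, against 0.136 and 0.255 CPM in day-1 vehicle, so day-1 cells had close to none. Il1rn, the interleukin-1 receptor antagonist, had 183 CPM with the antagonist, against 11.2 and 17.7 CPM in day-1 vehicle. The lower member was Il33, an alarmin cytokine named here after its values were seen, with 0.466 CPM with the antagonist and 2.71 and 3.85 CPM in day-1 vehicle.

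Neighbouring families moved in the same direction. The gene lists share members, such as Ly6d in both the Ly6 list and the squamous-type list below, so their counts are not independent. Of 8 tested Ly6 genes 6 were called higher and none lower (median log2 ratio 3.89), and with no filter on low counts 8 of 13 were called higher (median 1.56). The summed level of the Ly6 family was 4703 CPM with the antagonist, against 1149 and 1309 CPM in day-1 vehicle. Day-4 vehicle had 3583 CPM, so the family's total was also high there. Genes near 0 at day 1 pass the filter only through the antagonist library where they are high, so counts over tested members are descriptions. Among the Ly6 genes was Ly6c1, with 93.5 CPM with the antagonist against 2.06 and 3.06 CPM in day-1 vehicle. Of 20 tested annexin and S100 genes, which encode calcium-binding membrane proteins, 14 were called higher and 1 lower. S100a6 had 3097 CPM with the antagonist, against 965 and 1022 CPM in day-1 vehicle and 55.9 CPM in day-4 vehicle, and Anxa5 had 780 CPM against 98.9 and 129 CPM in day-1 vehicle. Anxa10, an annexin of gastric epithelium, had 495 CPM with the antagonist and 25.6 and 47.7 CPM in day-1 vehicle. The lower one was S100g, the calcium carrier of absorptive enterocytes, named after its values were seen, with 83.4 CPM with the antagonist against 175 and 198 CPM in day-1 vehicle. S100g was just past 2-fold and was not called under TMM or DESeq2 scaling of the ratios.

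Of 12 tested YAP and TEAD target genes 4 were called higher and 1 lower. Ccn2 (Ctgf), the best known of them, had 21.0 CPM with the antagonist, against 4.07 and 6.48 CPM in day-1 vehicle and 0.551 CPM in day-4 vehicle. Myof, a membrane repair protein, had 64.4 CPM with the antagonist and 2.59 and 3.58 CPM in day-1 vehicle, and F3, tissue factor, 472 CPM and 46.7 and 71.3 CPM. Nuak2, a kinase in the feedback of this pathway, went the other way, with 1.32 CPM with the antagonist and 8.78 and 10.1 CPM in day-1 vehicle. Of 10 tested EGF receptor ligands and receptors 5 were called higher and none lower. Areg, the ligand amphiregulin, had 1754 CPM with the antagonist, against 373 and 659 CPM in day-1 vehicle and 130 CPM in day-4 vehicle, while Egfr itself had 22.4 CPM against 7.15 and 8.20 CPM in day-1 vehicle.

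Genes of a squamous-type barrier included several that were near 0 at day 1 and higher with the antagonist. Of 28 genes in the list 15 passed the filter on low values, 10 of these were called higher and none lower (median log2 ratio 2.25). With no filter 11 of 24 were called higher (median 1.08). Ivl, the cornified envelope protein involucrin, had 23.8 CPM with the antagonist, against 0.0301 and 0.111 CPM in day-1 vehicle and 0 UMIs in day-4 vehicle. Sprr1a, another envelope protein and a marker of regenerating intestinal epithelium, had 487 CPM with the antagonist, against 5.89 and 24.9 CPM in day-1 vehicle and 4.47 CPM in day-4 vehicle (edgeR log2 fold change 5.15, SE 0.79, adjusted p = 0.00601). The day-1 libraries themselves differed several-fold for Sprr1a, and the antagonist library lay above both. Krt5 and Trp63, the keratin and transcription factor that define basal cells of stratified epithelium, had 0 UMIs with the antagonist; both were looked up after the list's values were seen.

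Of 19 genes of gastric-type epithelium 8 were tested, and 5 were called higher and none lower (median log2 ratio 1.75). With no filter 6 of 18 were called higher (median 0.40). Tff1, the trefoil peptide of gastric surface cells, had 181 CPM with the antagonist, against 1.63 and 6.14 CPM in day-1 vehicle and 0 UMIs in day-4 vehicle (edgeR log2 fold change 5.71, SE 0.70, adjusted p = 0.00330). Agr2, a disulfide isomerase of mucous cells, had 1494 CPM with the antagonist, against 312 and 529 CPM in day-1 vehicle and 347 CPM in day-4 vehicle. The defining gastric mucin Muc5ac, looked up after the list's values were seen, had 0.0203 CPM with the antagonist and 0 UMIs in both day-1 libraries. Keratins of simple epithelium moved less: of 6 tested, Krt7 and Krt19 were called higher. Krt19 had 14131 CPM with the antagonist, against 4448 and 5351 CPM in day-1 vehicle and 2773 CPM in day-4 vehicle. Of 16 tested claudin and tight junction genes 2 were called higher and 1 lower, with Cldn4, a sealing claudin, at 278 CPM with the antagonist against 37.9 and 88.1 CPM in day-1 vehicle.

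**Figure D3:**
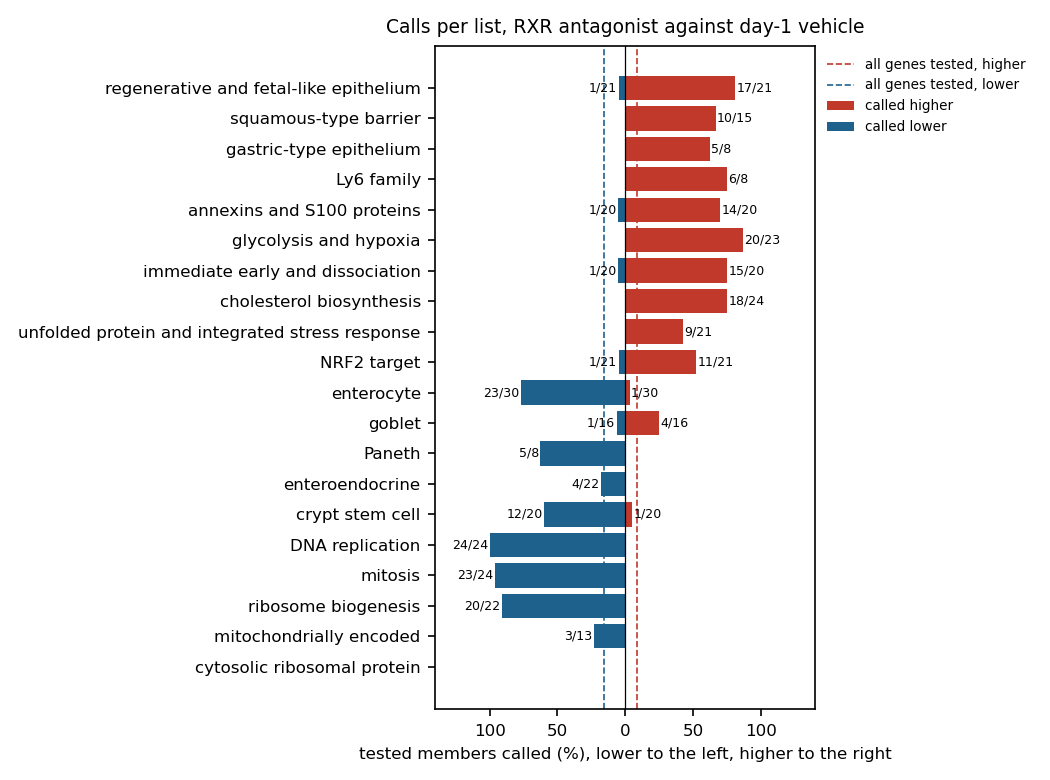
Share of the tested members of each gene list called higher (red, to the right) or lower (blue, to the left) with the antagonist than in day-1 vehicle, with the numbers called and tested. Dashed lines give the shares over all genes tested, 8.4% higher and 15.5% lower.

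These genes were not spread evenly over the cells. To compare cells, each was thinned to 5000 UMIs, which left out 228 antagonist cells with fewer, against 515 and 610 cells in the day-1 libraries. Genes of the regenerative list then took a median of 1.74% of a cell's UMIs with the antagonist (10th to 90th percentile 0.48% to 4.12%), against 0.70% and 0.78% in day-1 vehicle and 0.20% in day-4 vehicle. Without thinning the medians were 1.72% with the antagonist and 0.682% and 0.732% in day-1 vehicle. The ranges overlapped in part. The 90th percentiles of day-1 cells, 1.42% and 1.72%, lay below the antagonist median, and the 99th percentiles, 2.57% and 3.12%, lay above it. The squamous-type list took a median of 0.24% with the antagonist and a 90th percentile of 1.16%, against medians of 0.08% and 0.10% and 90th percentiles of 0.18% and 0.24% in day-1 vehicle.

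Single genes showed how this group was divided among cells. At least 5 of 5000 UMIs of Ly6d were found in 956 of 3342 antagonist cells (28.6%), against 2 of 5061 and 5 of 4694 cells in day-1 vehicle. Ly6a reached that number in 1238 antagonist cells (37.0%), against 2.57% and 3.11% of day-1 cells, and S100a6 in 63.2% of antagonist cells, against 39.0% and 36.1%. Sprr2f was concentrated in few cells: 71 antagonist cells (2.12%) reached 5 UMIs, and the top 5% of cells held 99.9% of its UMIs. Tff1 was likewise concentrated, with 97.9% of its UMIs in the top 5% of cells. By contrast the top 5% of cells held 30.2% of the UMIs of Trim29 and 30.2% of those of Nupr1. These top 5% shares were taken over all antagonist cells at their deposited depth, without thinning. Free RNA in the droplets can give UMIs in cells that do not express a gene; of the 106 antagonist cells with at least 5 UMIs of the goblet cell lectin Zg16, a gene chosen after its values were seen, 11 (10.4%) reached 5 UMIs of Ly6d, 24 (22.6%) of Ly6a and 32 (30.2%) of Sprr1a, against 28.6%, 37.0% and 9.13% of all antagonist cells for these genes. The part of free RNA in these shares was not tested.

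The overlap between these cells was partial. Of the 71 cells with at least 5 Sprr2f UMIs, 49 (69.0%) also had 5 of Sprr1a, which is 16.1% of the 305 Sprr1a cells. Among all antagonist cells 9.13% had 5 of Sprr1a. Of the same 71 cells 2 (2.82%) had 5 of Tff1, close to the 3.08% of all antagonist cells. Of the 956 Ly6d cells 628 (65.7%) had 5 Ly6a UMIs, which is 50.7% of the Ly6a cells. Among all antagonist cells 37.0% had 5 of Ly6a. Fabp1, an enterocyte gene, reached 5 UMIs in 283 (29.6%) of the Ly6d cells, below the 39.2% of all antagonist cells. These were 21.6% of the Fabp1 cells, whereas 28.6% of all antagonist cells had 5 of Ly6d.

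**Figure D4:**
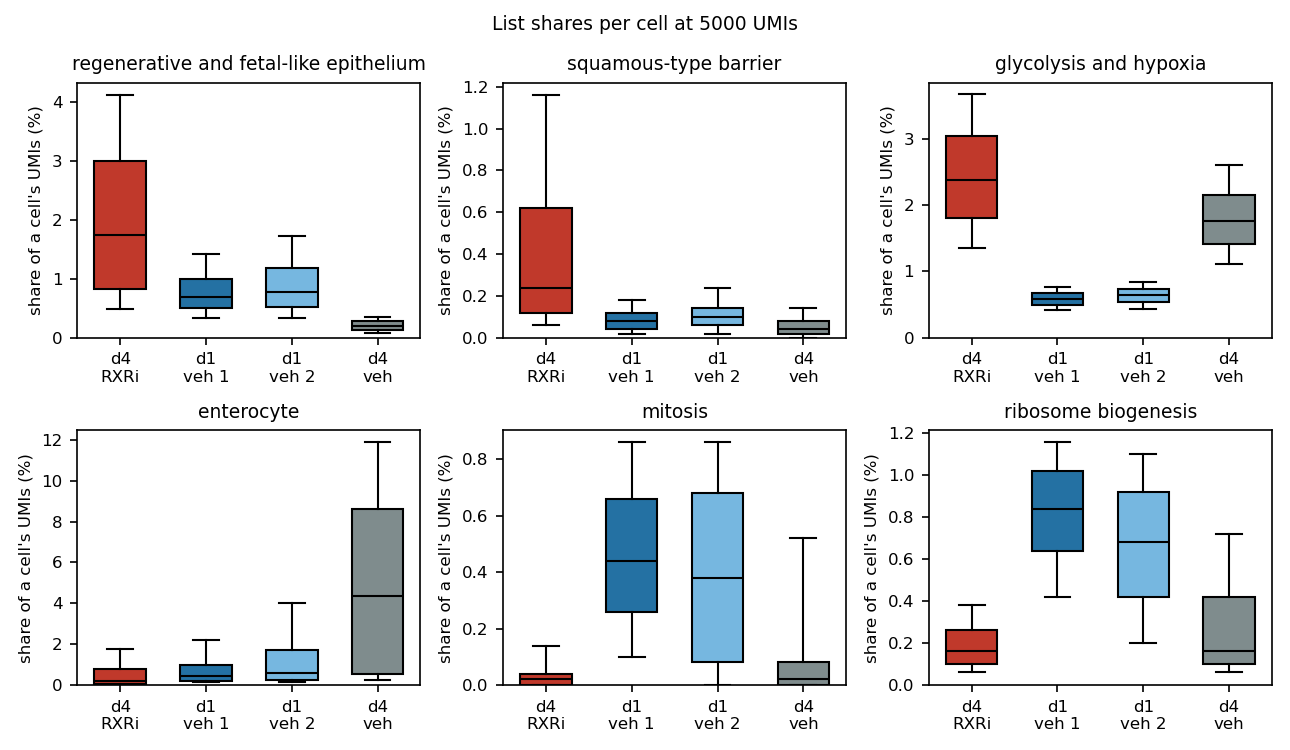
Share of each cell's UMIs that fell in 6 gene lists, after thinning each cell to 5000 UMIs, for the antagonist library, the 2 day-1 vehicle libraries and day-4 vehicle. Boxes give quartiles with the median as a line, and whiskers the 10th and 90th percentiles. The antagonist cells reach 4.12% for the regenerative list at the 90th percentile, against 1.42% and 1.72% in day-1 vehicle. Their median for mitosis is 0.02%, against 0.44% and 0.38% in day-1 vehicle and 0.02% in day-4 vehicle.

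Genes of the mature enterocyte were lower with the antagonist than at day 1, although most are known to increase as organoids mature. Of 30 tested members 23 were called lower and 1 higher (median log2 ratio -2.84). Beyond Apoa1, Cps1 and Sis, the apolipoprotein Apob had 0.993 CPM with the antagonist, against 137 and 194 CPM in day-1 vehicle and 358 CPM in day-4 vehicle. Not every absorptive gene was low. Fabp1, the liver-type fatty acid binding protein, had 4316 CPM with the antagonist, against 2928 and 5238 CPM in day-1 vehicle and 21359 CPM in day-4 vehicle, so the antagonist library lay between the 2 day-1 libraries (edgeR adjusted p = 0.585). The higher member was Reg1, a secreted lectin named after its values were seen, with 38.7 CPM with the antagonist against 8.66 and 17.7 CPM in day-1 vehicle and 626 CPM in day-4 vehicle.

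Other groups of the absorptive lineage gave other counts. Of 8 tested early and precursor enterocyte genes 3 were called higher and 1 lower. Of 14 tested microvillus genes 4 were called lower and none higher, and Vil1, the actin bundler villin, had 306 CPM with the antagonist against 254 and 332 CPM in day-1 vehicle. Mep1a, a brush-border protease, had 0 UMIs with the antagonist against 10.1 and 10.8 CPM in day-1 vehicle, which is at least 167-fold and 178-fold lower when the 0 is set at 3 UMIs for the library. Of 10 tested villus tip genes 6 were called higher and 1 lower, including Ceacam1, an adhesion molecule, with 68.4 CPM with the antagonist against 9.83 and 13.3 CPM in day-1 vehicle and 47.2 CPM in day-4 vehicle. Dmbt1, a secreted scavenger receptor, had 1001 CPM with the antagonist, against 31.4 and 18.7 CPM in day-1 vehicle and 357 CPM in day-4 vehicle.

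Secretory lineages did not move as one, and here the 2 day-1 libraries differed by more than 2-fold in summed level. Of 16 tested goblet cell genes 4 were called higher and 1 lower. Muc2, the main intestinal mucin, had 79.0 CPM with the antagonist, against 12.8 and 47.8 CPM in day-1 vehicle and 13 CPM in day-4 vehicle, and did not pass the test (edgeR adjusted p = 0.122). Without day-1 library 2, 12 of the 16 were at least 2-fold higher, and without day-1 library 1, 5 were higher and 3 lower, both by size alone. At 5000 UMIs, 85 antagonist cells (2.54%) had at least 5 UMIs of Muc2, against 0.692% and 2.41% of cells in the day-1 libraries. Cells with under 5000 UMIs are absent from these shares, and in day-1 library 1 they included cells rich in secretory genes. The 99th percentile of the goblet list there was 7.53% of UMIs over all cells and 4.14% after thinning, against 18.0% and 16.7% with the antagonist. That of the enteroendocrine list in day-1 library 1 was 16.7% and 0.048%. Guca2b, the guanylate cyclase ligand uroguanylin, was the lower member, with 2.57 CPM with the antagonist against 26.4 and 74.4 CPM in day-1 vehicle.

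Of 8 tested Paneth cell genes 5 were called lower and none higher. Lyz1, the Paneth cell lysozyme, had 2.03 CPM with the antagonist, against 61.6 and 154 CPM in day-1 vehicle and 147 CPM in day-4 vehicle (edgeR log2 fold change -5.57, SE 0.76, adjusted p = 0.00431). Of 22 tested enteroendocrine genes 4 were called lower and none higher, with the hormone genes Sst, Gip and Gcg among them. The call of Gcg (edgeR adjusted p = 0.0427) was lost with no filter on low counts (adjusted p = 0.0635) and in the DESeq2 test (adjusted p = 0.110). Sst, somatostatin, had 0.0405 CPM with the antagonist, against 9.35 and 39.0 CPM in day-1 vehicle and 0 UMIs in day-4 vehicle. Chga, the granule protein chromogranin A, had 24.2 CPM with the antagonist, against 68.7 and 246 CPM in day-1 vehicle and 18.6 CPM in day-4 vehicle, and missed the threshold (edgeR adjusted p = 0.0513). The enteroendocrine count rests on day-1 library 1: without it 21 of the 22 were at least 2-fold lower by size, and without day-1 library 2, 5 were.

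**Figure D5:**
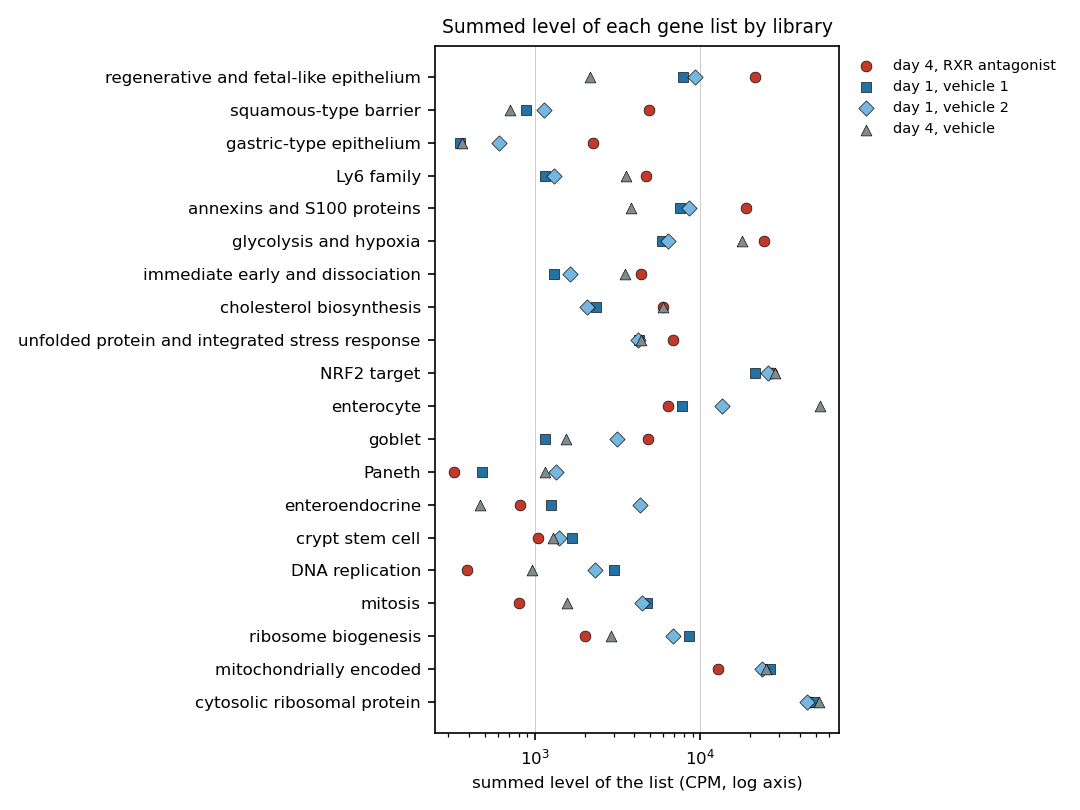
Summed level of each gene list in CPM on a log axis, with 1 point for each library. The antagonist library (red circles) is the highest point for the regenerative, squamous-type and gastric-type lists and the lowest for DNA replication, mitosis and mitochondrially encoded genes, while it lies near day-4 vehicle (grey triangles) for glycolysis and cholesterol biosynthesis.

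Many markers of crypt stem cells and many Wnt targets were lower with the antagonist. Of 20 tested stem cell genes 12 were called lower and 1 higher, and of 14 tested Wnt targets 8 were lower and 1 higher. With TMM or DESeq2 scaling of the ratios 10 of the 20 and 7 of the 14 were lower, and with a pseudocount of 5 CPM 9 and 6. Ascl2, the transcription factor of crypt base stem cells, had 0.851 CPM with the antagonist, against 26 and 16 CPM in day-1 vehicle and 12.6 CPM in day-4 vehicle. Axin2, the feedback inhibitor of Wnt signalling, had 2.77 CPM with the antagonist, against 29.95 and 22.0 CPM in day-1 vehicle and 27.4 CPM in day-4 vehicle. Sox9, a crypt progenitor factor, had 7.64 CPM with the antagonist, against 84.9 and 72.3 CPM in day-1 vehicle and 37.2 CPM in day-4 vehicle. The Wnt targets summed to 182 CPM with the antagonist, against 511 and 415 CPM in day-1 vehicle and 248 CPM in day-4 vehicle. Day-1 cells were under Wnt3a and CHIR99021 and both day-4 groups were not.

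The receptor Lgr5 and the stem cell marker Olfm4 were not among the genes called lower, though Olfm4 lay below both day-1 libraries. Lgr5 had 12.8 CPM with the antagonist, against 10.4 and 6.14 CPM in day-1 vehicle and 36.8 CPM in day-4 vehicle (edgeR adjusted p = 0.0954). Olfm4 had 0.75 CPM with the antagonist, against 1.94 and 1.40 CPM in day-1 vehicle and 279 CPM in day-4 vehicle (edgeR adjusted p = 0.0704). Both were low on day 1 and with the antagonist. The higher member of the stem cell list was Phlda1, named after its values were seen, with 642 CPM with the antagonist against 256 and 233 CPM in day-1 vehicle. Of 12 tested Notch pathway genes 2 were called lower, the ligand Dll1 and the glycosyltransferase Lfng, and the receptor Notch3 was called higher.

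Proliferation genes were lower with the antagonist almost without exception. Of 24 tested DNA replication genes all 24 were called lower (median log2 ratio -2.90), and of 24 tested mitosis genes 23 were lower (median -2.57). Mki67, the proliferation antigen, had 39.9 CPM with the antagonist, against 352 and 301 CPM in day-1 vehicle and 95.5 CPM in day-4 vehicle (edgeR log2 fold change -2.86, SE 0.18, adjusted p = 0.00118). Mcm3, a subunit of the replicative helicase, had 14.1 CPM with the antagonist, against 194 and 138 CPM in day-1 vehicle and 51.4 CPM in day-4 vehicle. Day-4 vehicle lay between day 1 and the antagonist for both genes. Per cell at 5000 UMIs, the median share of each list was 0.02% both with the antagonist and in day-4 vehicle. The 90th percentiles were 0.08% for DNA replication and 0.14% for mitosis with the antagonist, against 0.34% and 0.52% in day-4 vehicle. At 5000 UMIs, 30 antagonist cells (0.898%) had at least 5 UMIs of the topoisomerase gene Top2a, against 14% and 10.7% of day-1 cells and 4.46% of day-4 vehicle cells. Without thinning, the top 5% of all antagonist cells held 85.1% of the Top2a UMIs.

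Genes of ribosome biogenesis were lower with the antagonist, and those of the ribosome itself were close to day 1. Of 22 tested biogenesis genes 20 were called lower (median log2 ratio -2.20), with Ncl, the nucleolar protein nucleolin, at 383 CPM with the antagonist against 2595 and 2102 CPM in day-1 vehicle and 673 CPM in day-4 vehicle. Of 31 tested cytosolic ribosomal protein genes none was called in either direction by edgeR or DESeq2, at a summed level of 46466 CPM with the antagonist against 48099.8 and 44150.5 CPM in day-1 vehicle. Of these 31, 7 had an adjusted p under 0.05 in the edgeR test, 4 higher and 3 lower, and none of them was 2-fold apart from both day-1 libraries. Of 11 tested cell cycle inhibitor and senescence genes 4 were called higher and 2 lower, and without day-1 library 2, 7 were higher by size alone. Cdkn2b, the inhibitor p15, had 203 CPM with the antagonist, against 11.4 and 23.4 CPM in day-1 vehicle and 158 CPM in day-4 vehicle. Cdkn2a, which encodes the inhibitor p16, had 3.61 CPM with the antagonist, against 0.0452 and 0.0955 CPM in day-1 vehicle and 0.19 CPM in day-4 vehicle. Of 18 tested p53 targets 5 were called lower and 1 higher.

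Glycolysis and hypoxia genes were higher with the antagonist than at day 1, and most of that difference was shared with day-4 vehicle. Of 23 tested members 20 were called higher and none lower (median log2 ratio 2.29). Slc16a3, the lactate exporter MCT4, had 209 CPM with the antagonist, against 4.10 and 5.67 CPM in day-1 vehicle and 156 CPM in day-4 vehicle. Ndrg1, a stress-response gene of hypoxic cells, had 1329 CPM with the antagonist, against 36.9 and 83.5 CPM in day-1 vehicle and 518 CPM in day-4 vehicle. The summed level was 24253 CPM with the antagonist, against 5886 and 6364 CPM in day-1 vehicle and 17918 CPM in day-4 vehicle. The median per cell at 5000 UMIs was 2.38% of UMIs with the antagonist, against 0.58% and 0.64% in day-1 vehicle and 1.76% in day-4 vehicle.

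Cholesterol biosynthesis showed the same pattern more closely. Of 24 tested members 18 were called higher and none lower (median log2 ratio 1.38), at a summed level of 5968 CPM with the antagonist against 2342 and 2072 CPM in day-1 vehicle and 6004 CPM in day-4 vehicle. Fdps, farnesyl diphosphate synthase, had 501 CPM with the antagonist, against 99.6 and 84.1 CPM in day-1 vehicle and 396 CPM in day-4 vehicle. Insig1, the sterol sensor that restrains this pathway, had 408 CPM against 89.6 and 78.1 CPM in day-1 vehicle and 499 CPM in day-4 vehicle. For both lists, day 4 with or without the antagonist stood above day 1.

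Stress genes divided between these patterns. Of 20 tested immediate early and dissociation genes 15 were called higher and 1 lower, and these can respond to the preparation of cells. Jun, a component of AP-1, had 550 CPM with the antagonist, against 65.3 and 98.5 CPM in day-1 vehicle and 512 CPM in day-4 vehicle, and Fos, its partner, had 635 CPM against 90.1 and 149 CPM in day-1 vehicle and 659 CPM in day-4 vehicle. Ier3, an early response gene, was high in the antagonist library alone, with 282 CPM against 30.5 and 35.4 CPM in day-1 vehicle and 23.2 CPM in day-4 vehicle. Of 21 tested genes of the unfolded protein and integrated stress response 9 were called higher, with Ddit3 (CHOP) at 123 CPM with the antagonist against 7.21 and 12.8 CPM in day-1 vehicle and 47.5 CPM in day-4 vehicle. Of 21 tested targets of the oxidative stress factor NRF2 11 were called higher and 1 lower. Hmox1, heme oxygenase 1, had 88.1 CPM with the antagonist, against 6.46 and 8.37 CPM in day-1 vehicle and 8.27 CPM in day-4 vehicle, and Slc7a11, the cystine carrier, had 111 CPM against 9.37 and 12.1 CPM in day-1 vehicle and 6.44 CPM in day-4 vehicle.

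The antagonist's own receptors were little different from day 1. Rxra had 9.20 CPM with the antagonist, against 11.8 and 12.1 CPM in day-1 vehicle and 19.7 CPM in day-4 vehicle (edgeR adjusted p = 0.310). Rxrb had 24.9 CPM with the antagonist, against 28.0 and 28.6 CPM in day-1 vehicle (edgeR adjusted p = 0.912). RNA levels say nothing of whether the receptors were blocked. Of 17 tested receptors and partners 3 were called higher and 1 lower. Rarg, a retinoic acid receptor prominent in stratified epithelium, had 11.5 CPM with the antagonist, against 0.934 and 1.07 CPM in day-1 vehicle and 2.53 CPM in day-4 vehicle. Pparg, the fatty acid sensor, had 166 CPM against 43.8 and 51.5 CPM in day-1 vehicle, and Nr1h4, which encodes FXR, 63.8 CPM against 19.0 and 26.1 CPM. Nr1h3, which encodes a liver X receptor, was the lower one, with 2.80 CPM with the antagonist against 16.1 and 19.2 CPM in day-1 vehicle.

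Target genes of the receptors that pair with RXR were not uniformly low relative to day 1. Of 17 retinoic acid response genes 6 were tested, and 4 were called higher and 1 lower (median log2 ratio 1.86). With no filter 4 of 12 were called higher and 1 lower (median 0.08). Dhrs3, a retinal reductase that retinoic acid induces, had 28.9 CPM with the antagonist, against 6.91 and 10.6 CPM in day-1 vehicle and 79.6 CPM in day-4 vehicle. Aqp3, a water and glycerol channel, had 36.7 CPM with the antagonist, against 0.105 and 0.223 CPM in day-1 vehicle and 0.418 CPM in day-4 vehicle. Tgm2, a transglutaminase, was lower, with 0.588 CPM with the antagonist and 11.3 and 11.3 CPM in day-1 vehicle. Cyp26b1, the retinoic acid hydroxylase, was below the filter, with 0.142 CPM with the antagonist and 0.0151 CPM and 0 UMIs in day-1 vehicle.

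Of 20 tested genes of retinoid metabolism 6 were called lower and 2 higher, and without day-1 library 2, 4 were higher by size alone. Lrat, which stores retinol as esters, had 0.122 CPM with the antagonist, against 9.34 and 9.73 CPM in day-1 vehicle and 5.49 CPM in day-4 vehicle. Scarb1 and Bco1, the carotenoid importer and cleavage enzyme that Isx is known to repress, were both lower. Scarb1 had 10.4 CPM with the antagonist against 40.7 and 40.7 CPM in day-1 vehicle, and Bco1 had 0.466 CPM against 3.46 and 5.92 CPM.

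Lipid, bile acid and drug metabolism genes were mixed. Of 27 tested genes that PPARs control or that oxidise fatty acids 9 were called higher and 2 lower, and without day-1 library 2, 14 were higher by size alone. Of 13 tested liver X receptor targets 3 were called lower and none higher, and without day-1 library 2, 5 were lower by size alone. Abcg5, a subunit of the sterol exporter, had 5.45 CPM with the antagonist, against 56.3 and 93.7 CPM in day-1 vehicle and 141 CPM in day-4 vehicle. Among 8 tested genes that FXR controls or that carry bile acids, 4 were called lower and 2 higher, with Slc51a, a subunit of the basolateral bile acid exporter, at 0.344 CPM with the antagonist against 19.8 and 30.5 CPM in day-1 vehicle. Of 20 tested targets of VDR, PXR and CAR 8 were called lower and none higher, while their summed level, 3829 CPM with the antagonist, lay between the 3399 and 4673 CPM of the day-1 libraries. Cyp3a11, a drug-metabolising cytochrome, had 0 UMIs with the antagonist against 26 and 93.1 CPM in day-1 vehicle, at least 428-fold and 1533-fold lower when the 0 is set at 3 UMIs for the library; Cyp3a genes have similar copies, between which counts may be split.

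Immune-related genes of the epithelium went both ways. Of 10 tested cytokines and chemokines 3 were called higher and 3 lower. Ccl25, the chemokine that draws lymphocytes to the small intestine, had 20.4 CPM with the antagonist, against 482 and 540 CPM in day-1 vehicle and 1045 CPM in day-4 vehicle. Of 12 tested interferon response genes 6 were called higher and 2 lower, but with a pseudocount of 5 CPM 1 was higher and 2 lower, and with a floor of 10 CPM 1 of 5 was higher and 2 lower. Among them were Isg15 at 6.54 CPM with the antagonist against 0.452 and 0.653 CPM in day-1 vehicle and Ifitm3 at 2.33 CPM against 33.7 and 20.3 CPM. Of 13 tested class I antigen presentation genes 3 were called higher and 2 lower. H2-D1 had 708 CPM with the antagonist, against 224 and 259 CPM in day-1 vehicle, while H2-T3, the nonclassical thymus leukaemia antigen of enterocytes, had 0 UMIs with the antagonist against 27.7 and 31.9 CPM. The H2 genes are a family of similar copies, and their counts may be split between copies.

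Some matrix genes and few cytoskeleton genes were higher with the antagonist. Of 21 tested matrix and integrin genes 8 were called higher and 1 lower, among them Plaur, the urokinase receptor, with 292 CPM with the antagonist against 49.3 and 58.8 CPM in day-1 vehicle and 7.72 CPM in day-4 vehicle. Itga1, a collagen-binding integrin, was the lower one, with 0.405 CPM with the antagonist against 11.6 and 13 CPM in day-1 vehicle. Of 25 tested actin and actomyosin genes 4 were called higher and none lower, with Tpm2, a tropomyosin, at 7.58 CPM with the antagonist against 0.316 and 0.366 CPM in day-1 vehicle.

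Few energy genes of the mitochondrion were called. Of 13 tested genes encoded in mitochondrial DNA 3 were called lower, at a summed level of 12839 CPM with the antagonist against 26541 and 23716 CPM in day-1 vehicle and 25182 CPM in day-4 vehicle. Of these, mt-Nd1 and mt-Nd4 were just past 2-fold and were not called under TMM or DESeq2 scaling of the ratios. Of 27 tested nuclear genes of oxidative phosphorylation 1 was called lower, Cycs, and it too was not called under those scalings. The median share of mitochondrially encoded UMIs per cell at 5000 UMIs was 1.26% with the antagonist, against 2.50% and 2.38% in day-1 vehicle and 2.48% in day-4 vehicle.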

How the data were processed

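Single-cell RNA sequencing libraries of mouse intestinal organoids were made with a 10x kit (version 2, per the labels' protocols). The deposited values are raw UMI counts per gene and barcode for 55335 genes. Per the submitters' processing notes, bcl2fastq 2.17, Cell Ranger 3.1.0 and the build GRCm38 were used. All deposited barcodes were kept, including likely doublets, and cells were not clustered. Counts were summed per library, giving 49364894 UMIs for the antagonist and 66406098 and 62823092 for day-1 vehicle, and divided by library totals (CPM). Genes with a mean of the 2 group means of at least 1 CPM entered the quasi-likelihood test of edgeR 4.0.16 (run under R 4.3.3, with TMM factors and Benjamini-Hochberg adjustment) on 1 library against 2. The residual degrees of freedom come only from the day-1 pair. Ratios used CPM + 1. Intervals of CPM are exact Poisson intervals and those of ratios are exact binomial intervals on the counts of both libraries. All are at 95% and cover counting error only. The SE given with an edgeR log2 fold change was derived from that fold change and the F statistic of the test. Alternatives were DESeq2 1.42.0, TMM or DESeq2 factors for ratios, other filters, a pseudocount of 5 CPM, removal of likely doublets (Scrublet scores, scanpy 1.11.5), equal weight per cell and leaving out each day-1 library. The genes named were the 12 highest and 12 lowest by the smaller of the 2 ratios, at most 4 genes a list, those whose smaller ratio was largest, and a fixed set of 25 markers and receptors. The members and lists were chosen with earlier results of these data known. The fit was tested on simulated data. A few genes that the naming rule selects are not reported here.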

Additional observations from a re-analysis of the deposited data

How the results depend on the processing

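With a pseudocount of 5 CPM the calls over all genes fell to 640 higher and 1218 lower, and those by size alone to 641 and 1219. All of these calls were among those made with 1 CPM, and no called gene was called in the other direction under any alternative that gives a test. The other alternatives that give a test left 770 to 1311 genes higher and 1482 to 1952 lower; the DESeq2 test called 1038 and 1926. The median of the FXR and bile acid list, -0.66, became 0.080 with no filter on low counts and 0.41 with a floor of 10 CPM, and that of the interferon list, 1.18, became -0.58 with that floor; both alternatives change which genes are tested. Under TMM or DESeq2 scaling of the ratios, 1 mitochondrially encoded gene was called lower, against 3. With each cell weighted equally, 15 of 23 enteroendocrine genes were at least 2-fold lower by size alone. The 4 of 22 called lower also had to pass the test, so the 2 counts are not alike. Among genes named by the rule, calls were lost 29 times and gained 5 times over the alternatives that give a test. Genes that an alternative's filter left out are not in these counts. In the alternatives without a test, the smaller ratio of a named gene moved beyond the spread of the day-1 pair 258 times. Thinning cells to 5000 UMIs left the median share of 11 of 14 lists within the spread and moved 3. A median does not show the loss of rare cell types. No paired analysis was possible because the labels do not link the antagonist library to either day-1 library. With 1 antagonist library, the spread between antagonist cultures was not measured.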
